A study of Mus musculus with 16 samples.

Results

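The cortex of mice given the ATG-GGN100dCT construct was set against the cortex of mice given the TAG-GGC100 construct, by bulk RNA sequencing. All mice of the series received an adeno-associated virus (AAV), a vector that brings a gene into cells. By its name, the first construct pairs ATG, the codon at which translation usually starts, with a repeat of GGN, which covers every glycine codon. The second pairs TAG, which stops translation, with a repeat of the single glycine codon GGC. What dCT stands for is not stated in the labels, and protein was not measured. The members were all libraries that the title code and the design text assign to these constructs, 4 for each, so 8 of the 16 libraries of the series. The other 8 libraries received ATG-GGC100 or ATG-GGC11 and enter as context and in the shared estimate of the spread. The labels name neither the strain, sex and age of the mice, nor the promoter and serotype of the vector, nor whether libraries of 1 group came from separate animals. The p-values therefore measure the spread between these samples, which may be technical.

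Expanded GGC repeats in the human gene NOTCH2NLC cause neuronal intranuclear inclusion disease, in which inclusions form in the nuclei of neurons and other cells. GGC repeats can act as RNA and can also be translated into polyglycine, and a GGN-coded repeat keeps the glycine while changing the RNA sequence. The series asked how polyG proteins change the cortical transcriptome, and its title names microglia, the immune cells that live in the brain.

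The 8 libraries held 14048938 to 18830402 counts each, and 17737 genes passed the filter on low counts. FPKM below is counts per kilobase of exonic length and per 1000000 counts of the library, and CPM is counts per 1000000. The row of the ATG-GGN100dCT construct had 20.5, 8.65, 25.3 and 35.0 CPM in replicates 1 to 4 of its own group, against 0, 0.0531, 0 and 0 CPM in the TAG-GGC100 libraries. The TAG-GGC100 row had 0.546, 0.131, 0.538 and 1.25 CPM in the ATG-GGN100dCT libraries, against 12.7, 15.1, 10.5 and 11.99 CPM in its own. Each group thus carried its own construct, and replicate 2 of ATG-GGN100dCT had the lowest level of its row. The treatment of any reads common to several construct rows is not known. Xist reached at most 9 counts in any library.

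Defining markers of cortical tissue were present in all 8 libraries. Slc17a7, a marker of excitatory neurons, had 184 to 372 FPKM in ATG-GGN100dCT and 174 to 232 FPKM in TAG-GGC100. Inhibitory neuron markers (Gad1, Gad2, Slc32a1) summed to 642 to 803 CPM in ATG-GGN100dCT and 624 to 800 CPM in TAG-GGC100. Striatal markers (Drd1, Drd2, Ppp1r1b), from the region below the cortex, summed to 612, 568, 427 and 469 CPM in the ATG-GGN100dCT libraries, against 247, 227, 609 and 255 CPM in the TAG-GGC100 libraries. The samples thus differed in striatal transcripts, and no striatal gene was called. The part of this difference in the results below was not tested. Hepatocyte markers (Alb, Apoa1, Fgb, Serpina1c, Mup3, Ahsg) summed to 34.7, 38.5, 35.5 and 33.1 CPM in ATG-GGN100dCT, against 0.137, 0.212, 0.0712 and 0.259 CPM in TAG-GGC100, where 3 of the 6 had no count. Liver transcripts were therefore present in all libraries of 1 group and at or near 0 in the other. Replicate 1 of TAG-GGC100 also lay closer to ATG-GGN100dCT than its group in stress genes, and the counts of the chaperone lists below are given with and without it.

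**Figure D1:**
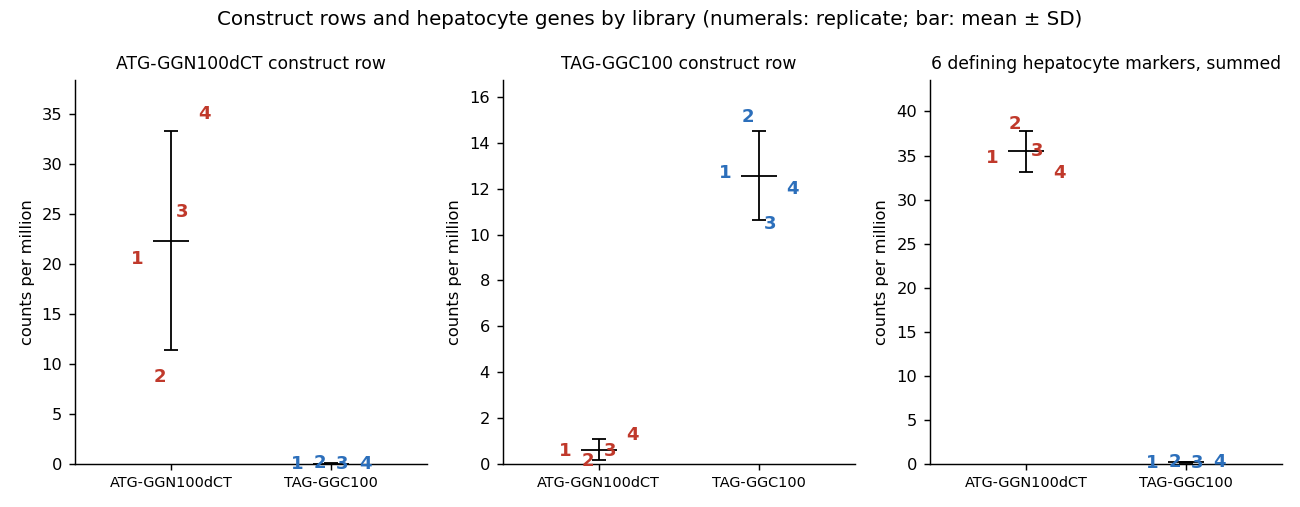
CPM (y axis) of the ATG-GGN100dCT construct row, the TAG-GGC100 construct row and the sum of 6 hepatocyte markers in the 8 libraries (numerals are replicates, bars the mean ± SD, n = 4). Each construct row stood high in its own group, and the hepatocyte sum lay between 33.1 and 38.5 in ATG-GGN100dCT and at most 0.259 in TAG-GGC100.

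Of the 17737 genes tested, 1542 (8.69%) were called at an edgeR adjusted p under 0.05, 762 higher (4.3%) and 780 lower (4.4%) in ATG-GGN100dCT. Most changes were small, with a median absolute change of 1.37-fold among the calls and 271 calls of at least 2-fold. The balance of directions depended on the scaling, since library totals gave 980 higher and 512 lower genes, or 65.7% higher in place of 49.4%. The limma test on log2 FPKM values, which carry that scaling, gave 64.0% higher with a pseudocount of 1 and 64.4% with 0.1. The number of calls fell to 772, 515, 650 and 600 without ATG-GGN100dCT replicate 3, ATG-GGN100dCT replicate 4, TAG-GGC100 replicate 2 and TAG-GGC100 replicate 4, each left out alone. Between both groups, 2281 genes (12.9%) had FPKM values that did not overlap. On the first principal component of the 8 libraries, which held 37.2% of the variance, the ATG-GGN100dCT libraries lay at 16.8, 7.65, 40.4 and 32.4. The TAG-GGC100 libraries lay at -17.0, -24.4, -19.5 and -36.3.

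**Figure D2:**
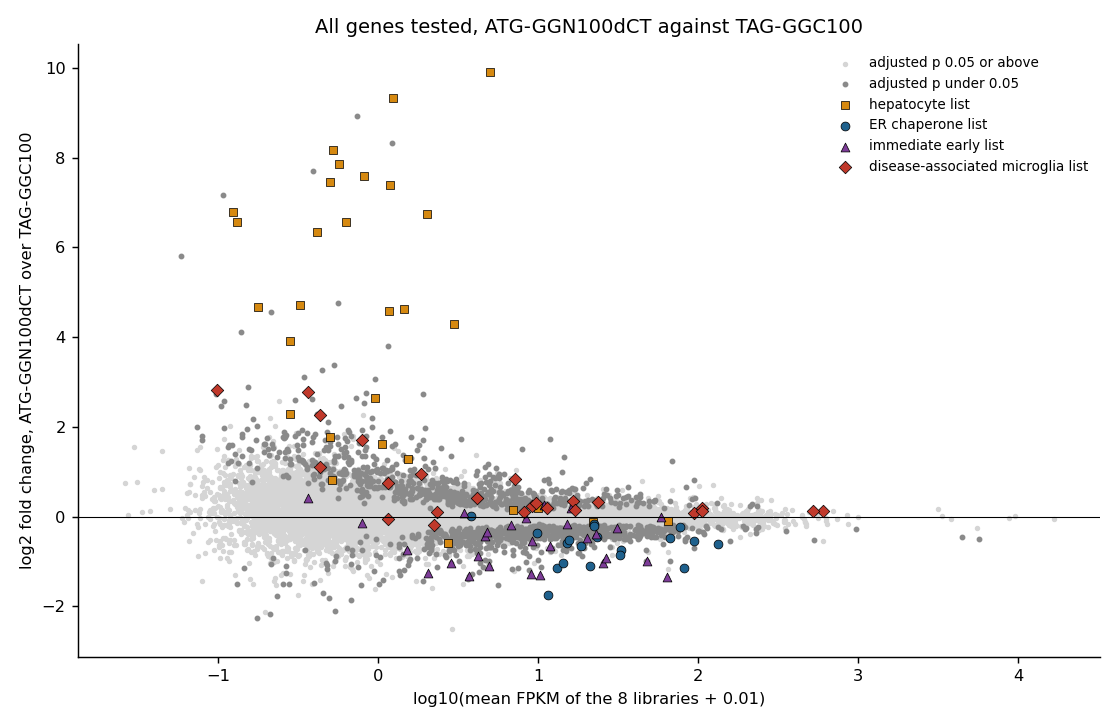
Log2 fold change of ATG-GGN100dCT over TAG-GGC100 (y axis) against the log10 mean FPKM of the 8 libraries plus 0.01 (x axis) for 17737 genes, with called genes in dark grey and members of 4 lists in colour. The hepatocyte list lies far above 0, the endoplasmic reticulum (ER) chaperone list below 0 among well-expressed genes, and the microglial list mostly above 0 at low levels.

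Chaperones of the endoplasmic reticulum, the compartment where secreted and membrane proteins fold, were lower in ATG-GGN100dCT than in TAG-GGC100 almost as a whole list. Cells raise these genes through the factors ATF6 and XBP1 when unfolded protein builds up there, and the ER stress response element in the promoter is the site through which they do so. Of 19 members tested, 17 fell in ATG-GGN100dCT and none rose, with a median log2 fold change of -0.60 against 0.01 over all genes. The 4.4% of all genes called lower is the background for this count. The 17 changes ran from -1.74 to -0.20 on the log2 scale. Of all 19 members tested, 14 were lower without overlap of FPKM between the groups, against 4.76% of all genes tested. The overlap and the calls rest on the same values, so this is no separate support. The ER stress response element, searched as CCAAT, any 9 bases and then CCACG on either strand, was found in 8 of the 17 members with a promoter window, and all 8 were called lower. Of the 9 members with a window and no match, 7 were called lower too. It occurred in 0.137% of the 27025 genes with a window. A match is a description of letters and not a measured site. Elements were also searched for the heat shock, immediate early and interferon lists, and are given with those lists.

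The matches of all 8 members are shown because they are the called members that hold the element; they come from RefSeq promoter windows on GRCm38.p6 and run 5′ to 3′ on the strand of the gene, with the element in capitals. Hsp90b1 holds 2 matches, and in Calr, Creld2 and the second match of Hsp90b1 the element lies on the opposite strand, so that it reads CGTGG first.
Calr, chr8:84847070-84847098, minus strand: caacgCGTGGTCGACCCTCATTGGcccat
Canx, chr11:50325795-50325823, minus strand: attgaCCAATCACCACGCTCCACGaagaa
Creld2, chr15:88819515-88819543, plus strand: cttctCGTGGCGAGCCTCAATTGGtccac
Dnajc3, chr14:118937822-118937850, plus strand: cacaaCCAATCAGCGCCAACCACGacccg
Hsp90b1, chr10:86705633-86705661, minus strand: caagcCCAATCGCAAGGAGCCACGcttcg
Hsp90b1, chr10:86705528-86705556, minus strand: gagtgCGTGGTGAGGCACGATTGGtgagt
Hspa5, chr2:34772020-34772048, plus strand: cttcaCCAATCGGAGGCCTCCACGacggg
Pdia6, chr12:17266486-17266514, plus strand: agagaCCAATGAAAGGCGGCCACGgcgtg
Syvn1, chr19:6046527-6046555, plus strand: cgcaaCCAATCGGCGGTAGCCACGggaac

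In Hspa5 the element lay 65 to 46 bases before the transcription start, and in Syvn1 it came nearest to the start of those shown, at 44 to 25 bases. Canx, a lectin chaperone of glycoproteins, and Dnajc3, which helps BiP and curbs the kinase PERK, hold it 145 and 105 bases before the start.

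Hspa5 (ENSMUSG00000026864) encodes BiP, the main Hsp70 chaperone of the ER. It measured 58.1, 57.2, 46.6 and 45.1 FPKM in replicates 1 to 4 of ATG-GGN100dCT, against 70.0, 107, 113 and 153 FPKM in TAG-GGC100. All 4 ATG-GGN100dCT libraries lay below all 4 TAG-GGC100 libraries, of which replicate 1 was the lowest. The log2 fold change was -1.14 ± 0.18 (SE; edgeR adjusted p = 0.00409). Sdf2l1, a BiP cofactor, had 6.73, 6.21, 3.77 and 5.02 FPKM in ATG-GGN100dCT, against 8.05, 14.9, 19.4 and 28.1 FPKM in TAG-GGC100. It showed the steepest fall of the list, -1.74 ± 0.30 (edgeR adjusted p = 0.00546). The disulfide isomerase gene Pdia4 had 15.5, 15.4, 11.1 and 12.8 FPKM in ATG-GGN100dCT, against 18.6, 28.7, 30.4 and 35.9 FPKM in TAG-GGC100, a change of -1.09 ± 0.16 (edgeR adjusted p = 0.00227). Creld2, whose product is secreted under ER stress, changed by -1.13 ± 0.20 (edgeR adjusted p = 0.0047). Hsp90b1, which encodes the ER form of Hsp90, moved less, with 82.4, 79.3, 77.9 and 71.9 FPKM in ATG-GGN100dCT and 84.1, 110, 109 and 139 FPKM in TAG-GGC100 (edgeR log2 fold change -0.54, adjusted p = 0.00682). Xbp1 itself fell by 0.74 ± 0.12 (edgeR adjusted p = 0.00196). The exceptions were Dnajb9 (-0.16, edgeR adjusted p = 0.118) and Edem1 (0.01, adjusted p = 0.967).

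Summed over the list, ER chaperones made 2280, 2210, 2090 and 2080 CPM in ATG-GGN100dCT, against 2450, 3120, 3160 and 3890 CPM in TAG-GGC100. With the other constructs the sums were 2210 to 2430 CPM (ATG-GGC100) and 2370 to 2690 CPM (ATG-GGC11). The TAG-GGC100 libraries were thus more variable than ATG-GGN100dCT, and their replicates 2 to 4 stood above all other libraries of the series. Replicate 1 of TAG-GGC100 was close to the ATG-GGN100dCT range. The count stayed at 17 without that replicate and was 14 to 17 with any single library of either group left out; it was 10 when at least 1.5-fold was also required. In the other groups Hspa5 averaged 55.2 ± 2.44 FPKM with ATG-GGC100 and 73.1 ± 10.5 FPKM with ATG-GGC11, against 111 ± 33.9 FPKM with TAG-GGC100 (SD, n = 4 each). Only 1 of 23 tested genes of the integrated stress response, which ATF4 drives, was called, against 4.4% of all genes called lower. This was Chac1, at -0.53 (edgeR adjusted p = 0.0356). That call was lost without ATG-GGN100dCT replicate 1, 2 or 4 or TAG-GGC100 replicate 4.

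Cytosolic heat shock genes were lower in ATG-GGN100dCT than in TAG-GGC100 as well. These chaperones and cochaperones are driven by the heat shock factor HSF1. Of 20 members tested 13 fell and none rose, against 4.4% of all genes called lower, with a median of -0.34. The heat shock element was found in 4 of the 16 members with a promoter window, and 2 of these 4 were called. Of the 12 members with a window and no match, 10 were called, so a match did not go with the calls here. The small heat shock gene Hspb1 had 2.41, 2.54, 2.78 and 2.70 FPKM in ATG-GGN100dCT, against 2.66, 6.34, 6.14 and 8.55 FPKM in TAG-GGC100. Replicate 1 of TAG-GGC100 lay inside the range of ATG-GGN100dCT, and the other 3 were at least 2 times as high. The log2 fold change was -1.22 ± 0.28 (edgeR adjusted p = 0.0143). The inducible Hsp70 gene Hspa1a had 3.09, 2.67, 2.82 and 3.82 FPKM in ATG-GGN100dCT and 3.45, 5.96, 4.68 and 6.82 FPKM in TAG-GGC100 (-0.80 ± 0.17, edgeR adjusted p = 0.00896). Its near-identical neighbour Hspa1b shares reads with it, so the pair is uncertain gene by gene. Chordc1, an Hsp90 cochaperone, did not overlap, with 13.8, 13.2, 10.8 and 12.1 FPKM in ATG-GGN100dCT and 14.3, 19.4, 20.1 and 24.5 FPKM in TAG-GGC100 (-0.69 ± 0.15, edgeR adjusted p = 0.0139). The list summed to 5380, 4990, 5400 and 5320 CPM in ATG-GGN100dCT, against 4990, 6200, 6020 and 7050 CPM in TAG-GGC100. Sums were 4930 to 5640 CPM with ATG-GGC100 and 4960 to 5550 CPM with ATG-GGC11. TAG-GGC100 replicates 2 to 4 thus stood above all other libraries of the series. The count of 13 was less stable than that of the ER list. It was 15 without TAG-GGC100 replicate 1, and 8, 7, 6 and 5 without ATG-GGN100dCT replicate 3, ATG-GGN100dCT replicate 4, TAG-GGC100 replicate 2 and TAG-GGC100 replicate 4. It was 7 in a fit of the 8 libraries alone and 5 at 1.5-fold, and the call of Hspb1 was lost without TAG-GGC100 replicate 4 (adjusted p = 0.0583).

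The cold-inducible RNA-binding protein genes Cirbp and Rbm3, which fall with warmth in cultured cells, went the other way. Cirbp had 19.9, 24.9, 26.6 and 29.4 FPKM in ATG-GGN100dCT, against 20.6, 12.03, 12.3 and 13.5 FPKM in TAG-GGC100 (0.75 ± 0.19, edgeR adjusted p = 0.0297). Rbm3 had 10.6, 12.1, 10.16 and 11.1 FPKM in ATG-GGN100dCT, against 10.4, 6.27, 7.17 and 7.52 FPKM in TAG-GGC100 (0.45 ± 0.11, edgeR adjusted p = 0.0164). In both genes replicate 1 of TAG-GGC100 lay within the range of ATG-GGN100dCT, and both calls held when that replicate was left out. Tsc22d3, a target of the glucocorticoid receptor, had 10.9, 15.7, 14.4 and 13.4 FPKM in ATG-GGN100dCT, against 14.9, 26.8, 24.8 and 30.1 FPKM in TAG-GGC100, a change of -0.87 ± 0.19 (edgeR adjusted p = 0.015). It and Zbtb16 were the only 2 of 16 glucocorticoid-responsive genes called, against 4.4% of all genes called lower. None was left without ATG-GGN100dCT replicate 4 or TAG-GGC100 replicate 4. Only 1 was left without ATG-GGN100dCT replicate 1 or 2 or TAG-GGC100 replicate 2 or 3. Without TAG-GGC100 replicate 4 the adjusted p was 0.089 for Cirbp, 0.0577 for Rbm3 and 0.0514 for Tsc22d3. Without TAG-GGC100 replicate 2 it was 0.0901 for Cirbp and 0.0631 for Rbm3. The call of Cirbp was also lost without ATG-GGN100dCT replicate 3 (0.0843) or 4 (0.092) or TAG-GGC100 replicate 3 (0.0659), and that of Tsc22d3 without ATG-GGN100dCT replicate 4 (0.0519).

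**Figure D3:**
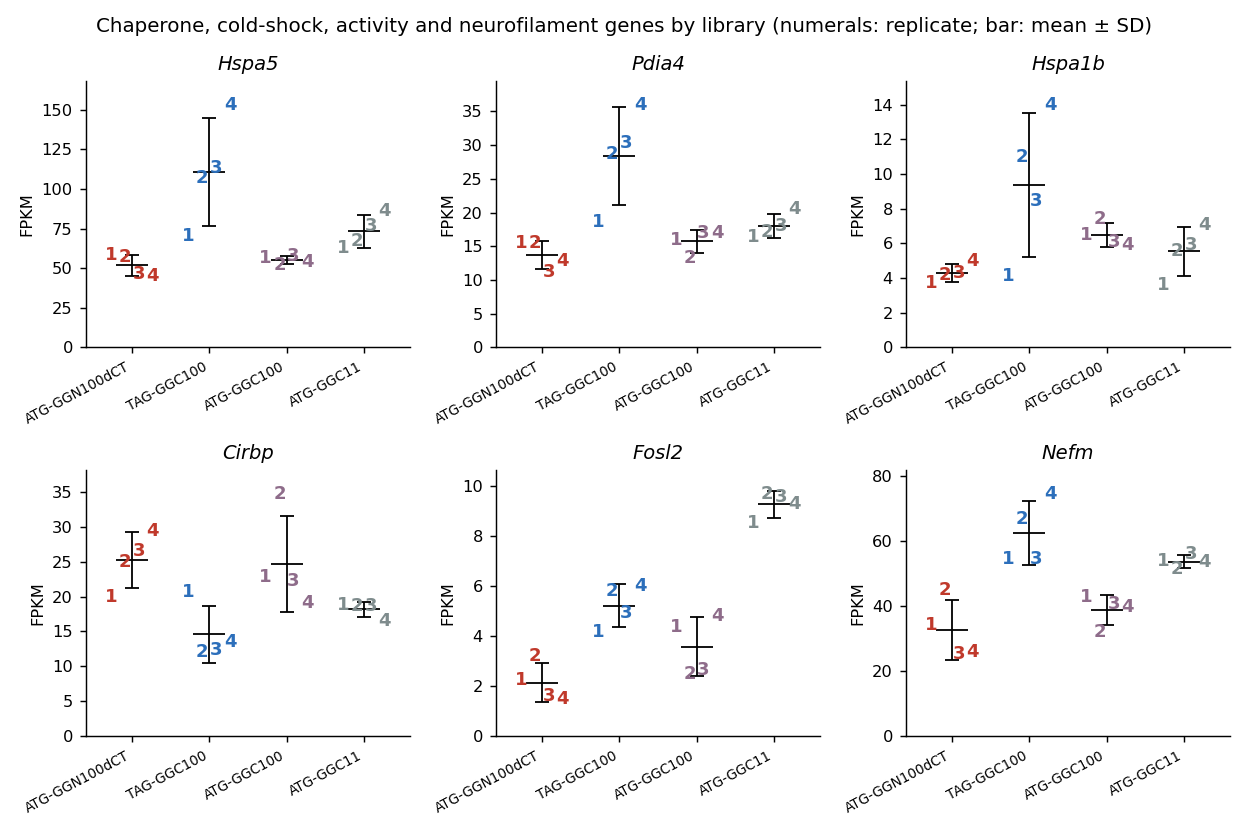
FPKM (y axis) of Hspa5, Pdia4, Hspa1b, Cirbp, Fosl2 and Nefm in all 16 libraries by construct (numerals are replicates, bars the mean ± SD, n = 4). TAG-GGC100 replicates 2 to 4 stand apart from ATG-GGN100dCT in Hspa5, Pdia4, Hspa1b and Cirbp while replicate 1 lies close to it, and Fosl2 and Nefm are lower in all 4 ATG-GGN100dCT libraries than in TAG-GGC100.

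Immediate early genes, which neurons switch on soon after firing, fell in part. Of 28 such genes 6 fell and none rose, against 4.4% of all genes called lower: Fosl2, Nr4a3, Fosb, Homer1, Egr3 and Klf4. The list median was -0.51, and the list summed to 1420, 1390, 1080 and 1010 CPM in ATG-GGN100dCT, against 1700, 2020, 1820 and 2360 CPM in TAG-GGC100. The sums did not overlap, and ATG-GGN100dCT replicates 3 and 4 were the lowest. Fosl2 (ENSMUSG00000029135), an AP-1 transcription factor subunit, had 2.23, 3.20, 1.62 and 1.49 FPKM in ATG-GGN100dCT, against 4.15, 5.79, 4.94 and 6 FPKM in TAG-GGC100. Its change was -1.33 ± 0.26 (edgeR adjusted p = 0.0101), and the call held in all 18 alternative fits. Homer1, a postsynaptic scaffold gene with an activity-induced short form, had 19.6, 21.9, 14.2 and 12.8 FPKM in ATG-GGN100dCT, against 34.1, 35.0, 30.3 and 37.1 FPKM in TAG-GGC100 (-1.03 ± 0.23, edgeR adjusted p = 0.0187). The transcription factor gene Egr3 had 35.5, 41.6, 35.5 and 19.1 FPKM in ATG-GGN100dCT and 63.7, 65.8, 55.6 and 68.8 FPKM in TAG-GGC100 (-0.98 ± 0.23, edgeR adjusted p = 0.0213). In both genes no library of one group reached the other. Fos, the best known member, did not pass: 7.07, 7.89, 3.00 and 3.61 FPKM in ATG-GGN100dCT and 9.57, 12.6, 12.6 and 15.8 FPKM in TAG-GGC100 (-1.27 ± 0.38, edgeR adjusted p = 0.0592), although DESeq2 gave 0.0119. Arc (-1.33 ± 0.46, edgeR adjusted p = 0.0902), Nr4a1 (-0.91, 0.101), Egr4 (-0.66, 0.0913) and Junb (-0.39, 0.403) had negative estimates that did not pass either. The cyclic AMP response element was found in 3 of the 24 list members with a promoter window, and none of these 3 was called. Of the 21 members with a window and no match, 5 were called.

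The count of 6 was 2, 2, 1, 3 and 1 without ATG-GGN100dCT replicates 3 and 4 and TAG-GGC100 replicates 2, 3 and 4, each alone. It was 3 in a fit of the 8 libraries alone and 10 by DESeq2 and without robust estimation. The call of Homer1 was lost without ATG-GGN100dCT replicate 3 (0.0619) or 4 (0.0578) or TAG-GGC100 replicate 2 (0.0508) or 4 (0.0564). Later activity-dependent genes gave 5 of 20 lower and none higher, against 4.4% of all genes called lower, around a median of -0.01. Pcsk1, a protease that cleaves neuropeptide precursors, was the clearest, with 6.61, 8.86, 6.32 and 5.18 FPKM in ATG-GGN100dCT, against 14.6, 14.7, 11.2 and 16.3 FPKM in TAG-GGC100 (-1.11 ± 0.20, edgeR adjusted p = 0.00666). Bdnf (0.09, edgeR adjusted p = 0.880) and Nptx2 (0.59, adjusted p = 0.477) were not called. The activity list count was 1, 3 and 1 without ATG-GGN100dCT replicate 4 and TAG-GGC100 replicates 2 and 4, and 3 by limma.

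Neurofilament genes, which encode the intermediate filaments of axons, fell together. Nefm (ENSMUSG00000022054) had 34.2, 45.0, 25.3 and 25.8 FPKM in ATG-GGN100dCT, against 54.3, 66.7, 54.5 and 74.3 FPKM in TAG-GGC100. Every ATG-GGN100dCT library lay below every TAG-GGC100 library, and the change was -0.98 ± 0.17 (edgeR adjusted p = 0.00493). Nefl had 73.8, 92.0, 59.1 and 66.0 FPKM in ATG-GGN100dCT, against 111, 117, 104 and 131 FPKM in TAG-GGC100 (-0.71 ± 0.11, edgeR adjusted p = 0.00175). Nefh and Ina, the remaining partners of the filament, fell by 0.47 ± 0.10 and 0.37 ± 0.08 (edgeR adjusted p = 0.0123 and 0.00712). With the RNA-binding protein gene Elavl4 (-0.30) these were the 5 called of 16 pan-neuronal genes, against 4.4% of all genes called lower. None rose, the median was -0.13, and the nuclear marker Rbfox3 stood at 51.5, 52.2, 55.2 and 49.9 FPKM in ATG-GGN100dCT and 51.7, 51.2, 47.3 and 47.9 FPKM in TAG-GGC100 (0.04, edgeR adjusted p = 0.711). The count was 4 to 6 with 1 library left out and 2 at 1.5-fold. In bulk tissue, fewer cells of a type and less RNA per cell cannot be told apart.

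A few interneuron genes fell. Of 24 inhibitory neuron genes 5 fell and none rose, against 4.4% of all genes called lower and a list median of -0.02, namely Cort, Lamp5, Sst, Kcnc2 and Erbb4. Cort, which encodes the peptide cortistatin, had 3.49, 3.87, 2.38 and 2.06 FPKM in ATG-GGN100dCT, against 9.12, 6.75, 6.73 and 10.8 FPKM in TAG-GGC100, a change of -1.53 ± 0.23 (edgeR adjusted p = 0.00105) that held in all 18 alternative fits. The general markers Gad1 (-0.13, edgeR adjusted p = 0.586) and Slc32a1 (0.05, adjusted p = 0.804) were not called. Pvalb, the marker of fast-spiking cells, had 43.2, 44.1, 21.9 and 36.0 FPKM in ATG-GGN100dCT and 58.0, 55.2, 50.2 and 81.6 FPKM in TAG-GGC100 (-0.80 ± 0.24, edgeR adjusted p = 0.0537). Its groups did not overlap, but it missed the threshold. The list count was 3, 3, 1, 2 and 2 without ATG-GGN100dCT replicates 1, 3 and 4 and TAG-GGC100 replicates 2 and 4, and 2 in a fit of the 8 libraries. Of 16 neuropeptide genes 3 fell and none rose, against 4.4% of all genes called lower and a list median of -0.01. They were Crh and, from the list above, Cort and Sst. Only 1 was left without ATG-GGN100dCT replicate 4 or TAG-GGC100 replicate 4. The same held by limma, with the replicate number as a block and in a fit of the 8 libraries.

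Release, channel and receptor genes gave smaller changes. Of 21 presynaptic genes 5 fell and none rose, against 4.4% of all genes called lower. Among them was the vesicle fusion gene Vamp1. It had 10.6, 13.1, 9.90 and 9.34 FPKM in ATG-GGN100dCT against 16.1, 16.3, 14.7 and 17.1 FPKM in TAG-GGC100 (-0.62 ± 0.10, edgeR adjusted p = 0.00227). The active zone genes Rims1 (-0.44, edgeR adjusted p = 0.00765) and Unc13a (-0.38, adjusted p = 0.00915) also fell. The count was 3 without TAG-GGC100 replicate 2 or 4 or without a filter on low counts, and 2 at 1.5-fold. Against 4.4% of all genes called lower and 4.3% called higher, the next lists gave few calls. Of 29 ion channel genes 3 fell, the potassium channel genes Kcnc1, Kcnc2 and Kcna2, by 0.35, 0.32 and 0.27 on the log2 scale. None of these 3 was called without ATG-GGN100dCT replicate 4, 1 channel gene fell without TAG-GGC100 replicate 2, and 6 did without ATG-GGN100dCT replicate 2. Among 27 glutamate and GABA receptor genes 2 rose and 3 fell. The kainate receptor subunit gene Grik4 rose to 4.73, 3.78, 5.18 and 5.45 FPKM in ATG-GGN100dCT, against 3.22, 2.78, 2.84 and 3.40 FPKM in TAG-GGC100 (0.61 ± 0.12, edgeR adjusted p = 0.00546). The GABA-A subunit gene Gabra2 fell by 0.38 on the log2 scale, with edgeR adjusted p = 0.00429. The 2 that rose became 1 without ATG-GGN100dCT replicate 3 or TAG-GGC100 replicate 1 or 2, and the 3 that fell became 6 without ATG-GGN100dCT replicate 2. Of 19 genes of excitatory neurons and cortical layers 1 rose (Neurod2, 0.41) and 1 fell (Etv1, -0.43), both lost with several single libraries left out; these shares are near those of all genes. Slc17a7, the vesicular glutamate transporter gene, was not called (0.42 ± 0.16, edgeR adjusted p = 0.122).

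Some microglial activation genes rose in ATG-GGN100dCT, at low levels. Disease-associated microglia are a state in which phagocytic and lysosomal genes go up through the receptor TREM2 and its adaptor TYROBP. Of 24 genes of that state 7 rose and none fell, against 4.3% of all genes called higher, with a median of 0.27. Clec7a (ENSMUSG00000079293), a receptor for fungal glucans, had 0.64, 0.42, 0.38 and 1.40 FPKM in ATG-GGN100dCT, against 0.05, 0.10, 0.24 and 0.17 FPKM in TAG-GGC100. The groups did not overlap and replicate 4 of ATG-GGN100dCT was the highest, with a change of 2.27 ± 0.48 (edgeR adjusted p = 0.0102). Gpnmb, a membrane glycoprotein of phagocytes, had 1.12, 0.77, 1.41 and 1.57 FPKM in ATG-GGN100dCT, against 0.32, 0.30, 0.47 and 0.36 FPKM in TAG-GGC100 (1.72 ± 0.25, edgeR adjusted p = 0.00105). The lysosomal gene Cd68 had 9.12, 7.46, 8.46 and 12.01 FPKM in ATG-GGN100dCT, against 5.68, 3.89, 6.17 and 4.33 FPKM in TAG-GGC100 (0.85 ± 0.16, edgeR adjusted p = 0.00512). Cst7, which encodes an inhibitor of lysosomal proteases, rose with overlapping groups, at 0.86, 0.33, 0.12 and 1.20 FPKM in ATG-GGN100dCT and 0.21, 0, 0.07 and 0.07 FPKM in TAG-GGC100 (2.78 ± 0.72, edgeR adjusted p = 0.024). Its call was lost without ATG-GGN100dCT replicate 1 (0.0541) or 4 (0.092) or TAG-GGC100 replicate 2 (0.0788) or 4 (0.0734).

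The genes of the receptor TREM2 and its adaptor TYROBP were not called. Trem2 changed by 0.11 (edgeR adjusted p = 0.726) and Tyrobp by 0.14 (adjusted p = 0.589). The complement subunit gene C1qa was not called either (0.27, adjusted p = 0.206). None of 15 homeostatic microglial genes was called, including P2ry12 (0.08, adjusted p = 0.751) and Tmem119 (-0.29, adjusted p = 0.0879). The markers P2ry12, Tmem119 and Cx3cr1 summed to 77.6 to 121 CPM in ATG-GGN100dCT and 93.8 to 116 CPM in TAG-GGC100. Of 14 general myeloid genes 1 rose, Aif1, against 4.3% of all genes called higher. That call was lost without ATG-GGN100dCT replicate 1 or 4 or TAG-GGC100 replicate 2 or 4. The microglial count of 7 was 3 without ATG-GGN100dCT replicate 4, 4 without TAG-GGC100 replicate 4 and 3 in a fit of the 8 libraries alone. Clec7a, Gpnmb and Cd68 were called in all 18 alternative fits.

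**Figure D4:**
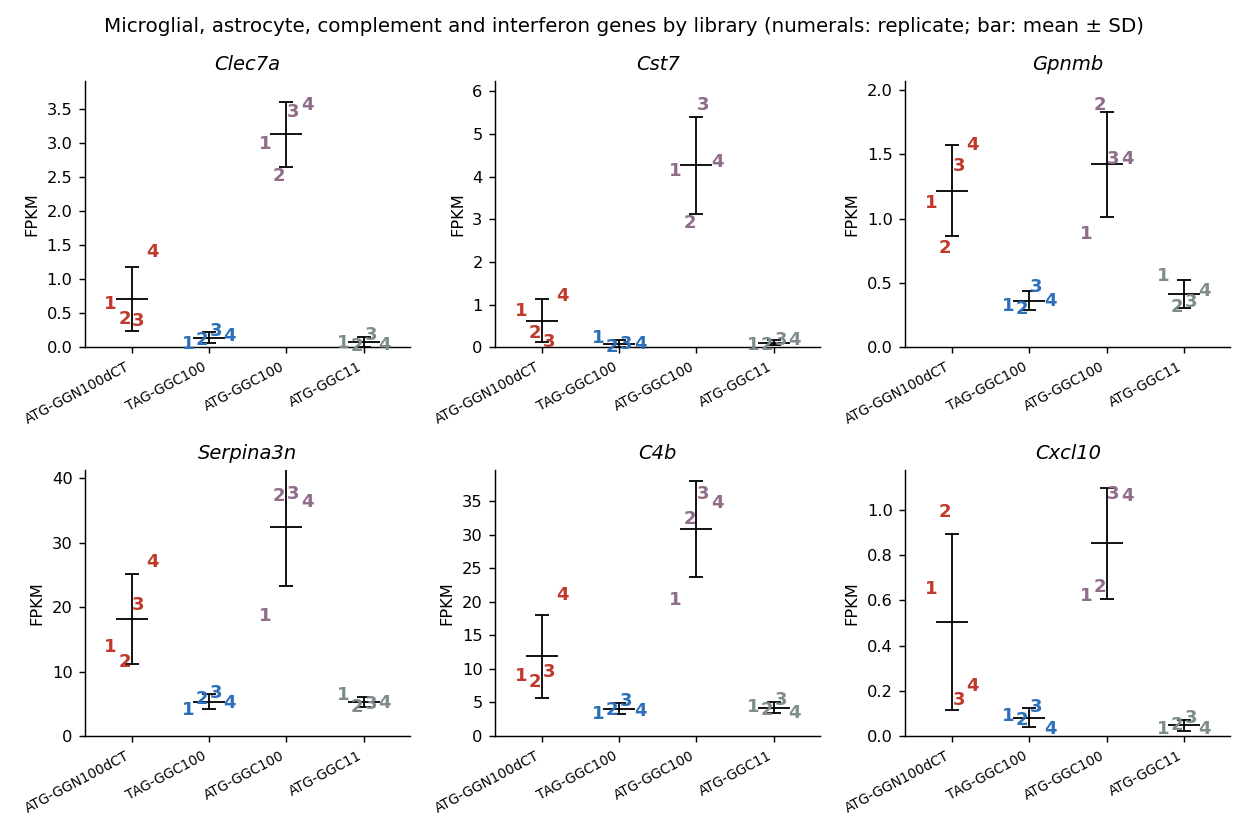
FPKM (y axis) of Clec7a, Cst7, Gpnmb, Serpina3n, C4b and Cxcl10 in all 16 libraries by construct (numerals are replicates, bars the mean ± SD, n = 4). ATG-GGN100dCT lies above TAG-GGC100 in each panel, with overlap in Cst7, and ATG-GGN100dCT replicate 4 is its group's highest library in all panels but Cxcl10.

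A minority of interferon, complement and antigen presentation genes was called. Type I interferon switches on antiviral genes through a factor complex that binds GAAA-type elements in promoters. Of 35 interferon-stimulated genes 6 rose and none fell (Irf7, Ifit3, Rtp4, Cxcl10, Oasl2, Ddx58), against 4.3% of all genes called higher. The list median was 0.39. Irf7, itself a factor of the interferon loop, had 1.56, 1.21, 1.04 and 1.05 FPKM in ATG-GGN100dCT, against 0.51, 0.45, 0.53 and 0.21 FPKM in TAG-GGC100 (1.49 ± 0.28, edgeR adjusted p = 0.00495). The chemokine gene Cxcl10 had 0.65, 0.99, 0.16 and 0.22 FPKM in ATG-GGN100dCT, against 0.09, 0.07, 0.13 and 0.03 FPKM in TAG-GGC100 (2.60 ± 0.57, edgeR adjusted p = 0.0107). Ifit3 had 10.8, 7.66, 3.76 and 7.90 FPKM in ATG-GGN100dCT and 5.15, 3.01, 3.34 and 3.68 FPKM in TAG-GGC100 (0.95 ± 0.24, edgeR adjusted p = 0.0227). In Ifit3 and Cxcl10, ATG-GGN100dCT replicate 3 was the lowest of its group. The list count was 12 without that library. It was 2, 2, 2, 3 and 2 without ATG-GGN100dCT replicates 1 and 4 and TAG-GGC100 replicates 2, 3 and 4, and 1 in a fit of the 8 libraries alone. Irf7 was called in all 18 alternative fits, and Ifit3 lost its call without ATG-GGN100dCT replicate 1 (0.0518) or 4 (0.0614) or TAG-GGC100 replicate 2 (0.0764), 3 (0.0505) or 4 (0.0706).

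The interferon core, searched as GAAA, any 2 bases and GAAA on either strand, was found in 17 of 26 list members with a promoter window, against 3.99% of all genes with one. Of the 17 members, 3 were called, Ifit3, Cxcl10 and Ddx58. Of the 9 members with a window and no match, 2 were called, so a match did not go with the calls here. Matches of Ifit3 and Cxcl10 are shown as examples of members that hold it and rose, and those of Ddx58 are not shown. They come from RefSeq windows on GRCm38.p6, 5′ to 3′ on the strand of the gene, with the core in capitals. In Ifit3 it lies on the opposite strand, so that it reads TTTC first.
Ifit3, chr19:34583363-34583392, plus strand: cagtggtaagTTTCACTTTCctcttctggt
Ifit3, chr19:34583397-34583426, plus strand: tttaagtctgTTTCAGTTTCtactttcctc
Cxcl10, chr5:92349083-92349112, minus strand: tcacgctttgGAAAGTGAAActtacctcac

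Complement proteins tag cells and debris for removal and are made in brain and, in bulk, by the liver. Complement genes gave 6 of 16 higher and none lower (C4b, C3, C1s1, C1ra, C3ar1, Cd46), against 4.3% of all genes called higher. The list median was 0.40. C4b had 8.93, 7.98, 9.54 and 21.0 FPKM in ATG-GGN100dCT, against 3.35, 3.91, 5.24 and 3.68 FPKM in TAG-GGC100 (1.51 ± 0.31, edgeR adjusted p = 0.0132). Replicate 4 of ATG-GGN100dCT was more than 2 times as high as the other 3, and its near copy C4a may take some of its reads. C3ar1, the receptor for the C3a fragment, rose by 1.26 (edgeR adjusted p = 0.00493). The central component C3 had 0.45, 0.54, 0.43 and 0.80 FPKM in ATG-GGN100dCT, against 0.08, 0.19, 0.28 and 0.04 FPKM in TAG-GGC100 (1.87 ± 0.42, edgeR adjusted p = 0.0129). The count was 3, 2 and 3 without ATG-GGN100dCT replicates 1 and 4 and TAG-GGC100 replicate 4, and 2 in a fit of the 8 libraries alone; C3 lost its call without ATG-GGN100dCT replicate 4 (0.0516). Of 16 MHC class I genes 3 rose (Tap1, H2-D1, Erap1) and 1 fell (H2-T22), against 4.3% and 4.4% of all genes. Tap1, a peptide transporter subunit, had 0.74, 0.86, 0.67 and 0.84 FPKM in ATG-GGN100dCT, against 0.44, 0.41, 0.44 and 0.28 FPKM in TAG-GGC100 (0.94, edgeR adjusted p = 0.0124). Only 1 rose without ATG-GGN100dCT replicate 1 or 4 or TAG-GGC100 replicate 1, 2 or 4, and H2 genes share reads. Hepatocyte transcripts were present in ATG-GGN100dCT at 33.1 to 38.5 CPM over 6 markers, and liver also makes C3, C4b, C1s1 and C1ra; the part of those transcripts in these values was not tested.

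Astrocytes are the glia that support synapses and wall off damage, and some genes of their reactive state were higher in ATG-GGN100dCT bulk tissue. Of 26 such genes 5 rose (Serpina3n, Gfap, Vim, Cxcl10, Aspg) and 1 fell (Hspb1, also a heat shock gene). Cxcl10 was also counted among the interferon genes, and the cells that expressed these genes were not identified. Of all genes, 4.3% were called higher and 4.4% lower. The list median was 0.24. The acute-phase protease inhibitor gene Serpina3n (ENSMUSG00000021091) had 13.9, 11.6, 20.4 and 27.1 FPKM in ATG-GGN100dCT, against 3.99, 5.71, 6.62 and 5.09 FPKM in TAG-GGC100. All 4 libraries lay above TAG-GGC100, replicates 3 and 4 the furthest, with a change of 1.72 ± 0.29 (edgeR adjusted p = 0.00548) that was called in all 18 alternative fits. Gfap, the filament gene of reactive astrocytes, had 79.3, 46.6, 122 and 140 FPKM in ATG-GGN100dCT, against 34.5, 44.4, 37.2 and 43.9 FPKM in TAG-GGC100 (1.23 ± 0.28, edgeR adjusted p = 0.0196). Replicate 2 of ATG-GGN100dCT was only just above TAG-GGC100. That call was lost without ATG-GGN100dCT replicate 3 (0.0606) or 4 (0.0641) or TAG-GGC100 replicate 4 (0.0514), with the replicate block (0.0506) and in a fit of the 8 libraries (0.0829). The count of 5 was 3, 2, 3 and 3 without ATG-GGN100dCT replicates 3 and 4 and TAG-GGC100 replicates 2 and 4, and 3 fell without TAG-GGC100 replicate 1. Liver makes Serpina3n as well, and the part of hepatocyte transcripts in its value was not tested.

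Genes of resting astrocytes were mostly not called, with 2 of 18 lower, against 4.4% of all genes. These were S1pr1 (-0.37, edgeR adjusted p = 0.00917) and the gap junction gene Gja1 (-0.24, adjusted p = 0.0177). The second call was lost without TAG-GGC100 replicate 2 (0.0508), and 4 of these genes fell without ATG-GGN100dCT replicate 2. The water channel gene Aqp4 was not called (-0.21, adjusted p = 0.161). Lcn2, a lipocalin of reactive astrocytes, had 0.53, 2.27, 0.50 and 0.27 FPKM in ATG-GGN100dCT and 0.05, 5.22, 8.63 and 5.76 FPKM in TAG-GGC100 (-2.50 ± 0.94, edgeR adjusted p = 0.121). It was at its lowest in TAG-GGC100 replicate 1 and high in the other 3. No oligodendrocyte gene of 17 and no mural cell gene of 10 was called. The myelin basic protein gene Mbp had 347, 310, 177 and 331 FPKM in ATG-GGN100dCT, against 217, 255, 338 and 281 FPKM in TAG-GGC100. ATG-GGN100dCT replicate 3 was the lowest of these 8 libraries, and the part of this in other results was not tested. Of 9 oligodendrocyte precursor genes 1 fell, Gpr17, against 4.4% of all genes called lower. It had 8.28, 8.63, 6.09 and 6.20 FPKM in ATG-GGN100dCT and 9.80, 12.6, 12.3 and 10.6 FPKM in TAG-GGC100 (-0.67, edgeR adjusted p = 0.00953). Among 15 endothelial genes the transporter genes Slco1a4 and Abcb1a rose, against 4.3% of all genes called higher. Slco1a4 had 5.51, 6.95, 5.22 and 6.49 FPKM in ATG-GGN100dCT, against 4.29, 2.53, 3.68 and 3.38 FPKM in TAG-GGC100 (0.77 ± 0.12, edgeR adjusted p = 0.00116), whereas Abcb1a (0.36, adjusted p = 0.0321) lost its call without ATG-GGN100dCT replicate 3 or 4 or TAG-GGC100 replicate 2, 3 or 4.

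The 12 largest increases named by the rule used here were in genes of the hepatocyte, the liver cell that makes most plasma proteins. Of 36 list members 29 were tested, and 23 of these rose in ATG-GGN100dCT, all without overlap between the groups. Of the 29, 17 had under 10 counts in every one of the 12 libraries of the other groups and were all among the 23. They passed the filter on low counts only through ATG-GGN100dCT, so the count is a description and is not read against the 4.3% of all genes called higher. Alb (ENSMUSG00000029368), serum albumin, had 9.27, 10.8, 10.1 and 9.54 FPKM in ATG-GGN100dCT, against 0, 0, 0 and 0.03 FPKM in TAG-GGC100. Over the groups these were 1462 counts against 1 count, a ratio of 1460 (exact 95% interval for counting error 262 to 57800). Its 4 values in ATG-GGN100dCT lay within a narrow range. Apoa1, an apolipoprotein of high density lipoprotein, had 2.65, 3.39, 2.66 and 2.42 FPKM in ATG-GGN100dCT, against 0.11, 0.09, 0.06 and 0.16 FPKM in TAG-GGC100 (log2 fold change 4.64 ± 0.43). Cyp2e1, a cytochrome P450 gene, had 2.16, 2.25, 2.57 and 1.97 FPKM in ATG-GGN100dCT and 0.10, 0.10, 0.10 and 0.06 FPKM in TAG-GGC100 (log2 fold change 4.57).

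Genes with no count in TAG-GGC100 allow only a lower bound, taken against 3 counts over the group. Serpina3k was at least 106-fold higher in ATG-GGN100dCT, Cyp4a14 at least 79.7-fold, Mup7 at least 52.7-fold and Ahsg at least 47.3-fold. Bounds and intervals cover counting error only. The major urinary protein gene Mup3 had 270 counts in ATG-GGN100dCT and 2 counts in TAG-GGC100, a ratio of 135 (exact 95% interval 37.0 to 1120). Mup, Serpina1 and Serpina3 genes have near copies, so single values within these families are uncertain. The 6 tested members that were not called were Ttr, Trf, Hpx, Vtn, Ass1 and Rbp4. Ttr, also made by choroid plexus, had 3.07, 2.60, 1.86 and 1.23 FPKM in ATG-GGN100dCT and 3.53, 0.67, 0.60 and 8.14 FPKM in TAG-GGC100. The count of 23 was 22 to 26 with 1 library left out and 12 with a filter of at least 1 FPKM in 4 libraries. The 12 largest increases of the naming rule, a different set, were Alb, Serpina3k, Cyp4a14, Mup7, Ahsg, Serpina1e, Mup20, Fabp1, Mup3, Gc, Mat1a and Apoa1. Of 6 red blood cell genes none was called, with a median log2 fold change of -0.94. By DESeq2, Hba-a2 and Hbb-bt were called lower (adjusted p = 0.0101 and 0.0378). The sum of the list was 101, 88.8, 59.0 and 89.2 CPM in ATG-GGN100dCT and 91.4, 84.8, 98.2 and 130 CPM in TAG-GGC100.

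The same rule gave 12 decreases. Besides Sdf2l1, Cort and Fosl2 they held Mettl11b, which encodes an N-terminal methyltransferase, at 0.30, 0.28, 0.26 and 0.34 FPKM in ATG-GGN100dCT and 0.48, 1.38, 1.19 and 1.09 FPKM in TAG-GGC100 (-1.86 ± 0.34, edgeR adjusted p = 0.00416). TAG-GGC100 replicate 1 was again the closest to ATG-GGN100dCT. The tetraspanin gene Tspan11 fell by 1.52 ± 0.32 (edgeR adjusted p = 0.0108) and kept its call in all 18 alternative fits. Clec3b, Tm6sf2, Cartpt, Gm20627, Mid1-ps1, Gm18706 and Gm4294 fell by 1.20 to 1.49 on the log2 scale and each lost its call in at least 1 alternative fit. Cartpt encodes a neuropeptide precursor and had 2.00, 4.16, 1.54 and 1.47 FPKM in ATG-GGN100dCT and 4.68, 5.28, 7.25 and 4.62 FPKM in TAG-GGC100.

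Few genes of the remaining lists were called, to be read against 4.3% of all genes called higher and 4.4% called lower. Mouse orthologs of genes with disease-linked GGC repeats gave 1 of 6 called, Rilpl1, lower at 23.9, 24.1, 23.1 and 21.6 FPKM in ATG-GGN100dCT against 29.1, 31.1, 27.4 and 33.9 FPKM in TAG-GGC100 (-0.43 ± 0.09, edgeR adjusted p = 0.0108). Without ATG-GGN100dCT replicate 2 the count was 3. Notch2 (0.15), Fmr1 (-0.19), Lrp12 (0.05), Gipc1 (-0.18) and Dab2ip (-0.22) were not called. Ubiquitin and autophagy genes, of interest because inclusions stain for ubiquitin and p62, had 2 of 21 higher (Optn, Grn) and 2 lower (Map1lc3b, Atg5). Without ATG-GGN100dCT replicate 4 none of these 4 was called, and without TAG-GGC100 replicate 2 neither Optn nor Grn was. Sqstm1, the gene of p62, had 161, 152, 167 and 170 FPKM in ATG-GGN100dCT and 144, 138, 132 and 148 FPKM in TAG-GGC100 (0.18 ± 0.06, edgeR adjusted p = 0.0648). The groups did not overlap, but the gene missed the threshold. Of 14 NRF2 antioxidant genes 3 rose (Nqo1, Srxn1, Gsr), a count that was 0 without ATG-GGN100dCT replicate 4, TAG-GGC100 replicate 2 or TAG-GGC100 replicate 4, 1 without ATG-GGN100dCT replicate 3 or TAG-GGC100 replicate 1, and 5 without ATG-GGN100dCT replicate 2. Border macrophage genes gave 2 of 10 lower, meningeal fibroblast genes 1 of 12 lower and choroid plexus genes 1 of 7 higher. The p53 targets gave 1 of 18 lower and nuclear pore and lamina genes 1 of 16 lower, both near the share of all genes called lower. Cholesterol synthesis genes gave 1 higher and 2 lower of 20. Each of these counts other than the meningeal one moved by over 1.5 times with some single library left out.

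**Figure D5:**
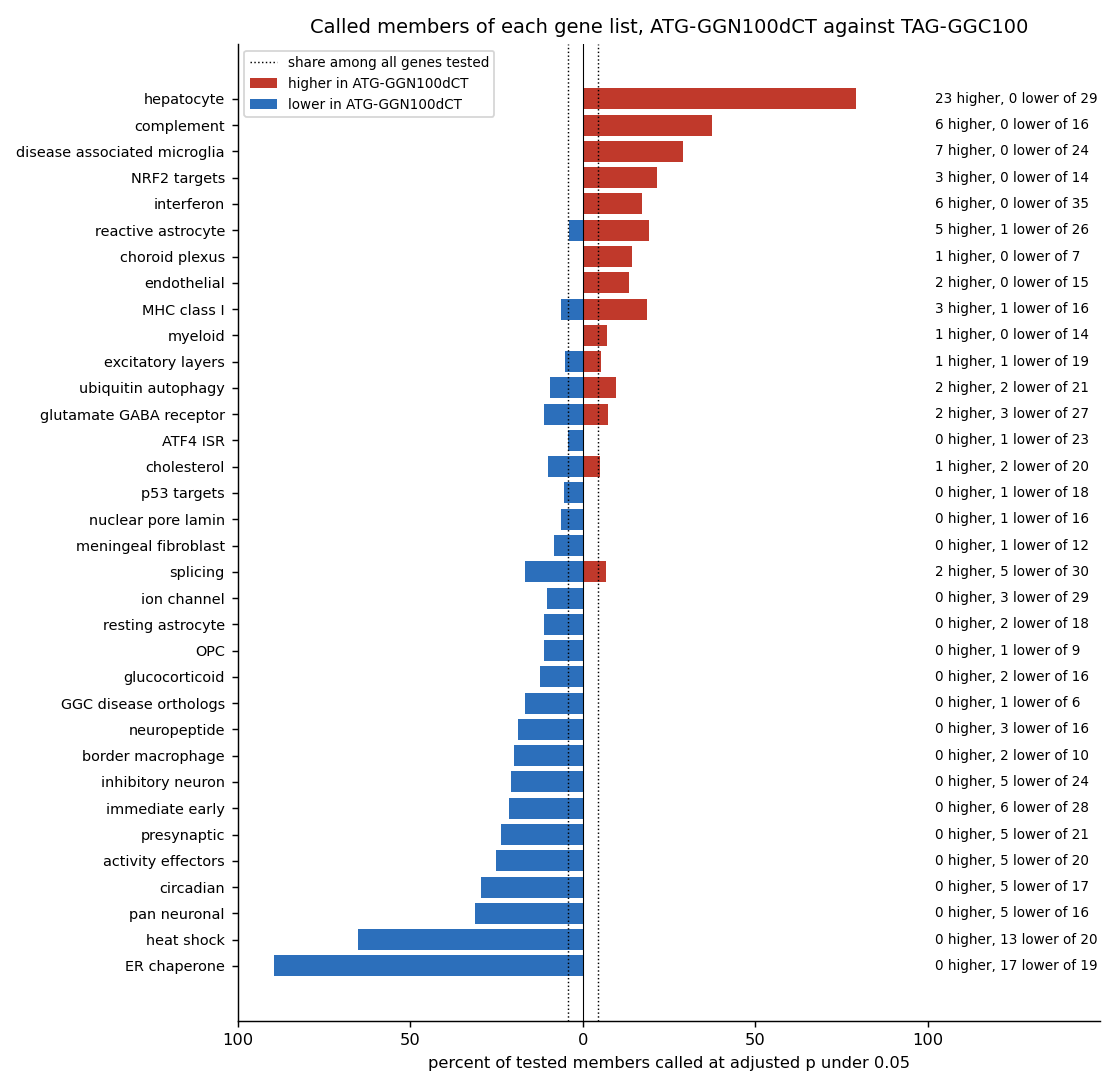
Percent of the tested members of each gene list (rows) called higher (right) or lower (left) in ATG-GGN100dCT than in TAG-GGC100, with dotted lines at the shares among all genes tested. Apart from the hepatocyte list (23 of 29 higher), the ER chaperone list (17 of 19 lower) lies furthest from those lines, followed by the heat shock list (13 of 20 lower). Most hepatocyte members passed the filter on low counts only through ATG-GGN100dCT, so nothing is read from their share.

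ATG-GGN100dCT was also set against ATG-GGC100, the construct with the pure repeat behind ATG, to place the values above. Both comparisons use the same 4 ATG-GGN100dCT libraries. Fewer genes were called, 363 of 17737 (2.05%), 152 higher (0.857%) and 211 lower (1.19%) in ATG-GGN100dCT. The number was 208, 688 and 205 without ATG-GGN100dCT replicates 1, 2 and 3. It was 204 when replicate 1 of ATG-GGC100 was left out and 165 when its replicate 3 was. None of the 19 ER chaperones was called (median -0.08), and neither was a heat shock gene (median -0.11) or an immediate early gene (median -0.25). Of the disease-associated microglia genes 13 of 24 were lower and none higher, with a median of -0.57. Clec7a averaged 0.710 ± 0.474 FPKM in ATG-GGN100dCT, against 3.12 ± 0.478 FPKM in ATG-GGC100 (SD, n = 4 each; -2.15, edgeR adjusted p = 0.00199). Trem2 and Tyrobp were lower by 1.03 and 0.99 on the log2 scale (edgeR adjusted p = 0.00185 and 0.000427). C4b averaged 11.9 ± 6.13 FPKM in ATG-GGN100dCT, against 30.9 ± 7.21 FPKM in ATG-GGC100 (-1.39, edgeR adjusted p = 0.0293), and Gfap 96.9 ± 42.1 FPKM, against 193 ± 22.5 FPKM (-1.0, adjusted p = 0.0853). Cort was lower here too, by 1.04 (edgeR adjusted p = 0.023), at 2.95 ± 0.867 FPKM in ATG-GGN100dCT, 8.36 ± 1.99 FPKM in TAG-GGC100 and 6.06 ± 1.63 FPKM in ATG-GGC100. Of the hepatocyte list 22 of 29 were higher. As above, 17 of the 29 passed the filter on low counts only through ATG-GGN100dCT, so this count too is only a description. In levels, Clec7a, C4b, Gfap and Serpina3n thus averaged between TAG-GGC100 and ATG-GGC100, while Hspa5 averaged 51.7 ± 6.86 FPKM in ATG-GGN100dCT and 55.2 ± 2.44 FPKM in ATG-GGC100 (-0.09, edgeR adjusted p = 0.844).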

How the data were processed

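Cortical poly(A) RNA of AAV-injected mice was sequenced, 4 libraries per construct and 16 in all. Per the labels' protocols, RNA was extracted with Trizol, selected with oligo(dT), randomly primed and amplified by PCR, with no strand-marking step named, so antisense partners and overlapping genes are uncertain. FastQC 0.10.1, cutadapt 1.9.1 and the builds GRCm39 and mm10 are listed in the submitters' processing notes; the sources used here name no aligner, counter or annotation. Deposited as 1 table were raw counts per gene and, per the file headers, the authors' FPKM values, which were recovered from counts, exonic lengths and library totals within 0.005. The table lists 55359 mouse genes and 4 construct rows, which took at most 0.00714% of a library and were left out of tests. Groups came from the title codes and the series' design text.

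Genes were kept by edgeR's filterByExpr (minimum count 10), given TMM factors and tested in edgeR 4.0.16 under R 4.3.3 (glmQLFit, robust, two-sided, all 16 libraries, group as the only term), with a Benjamini-Hochberg threshold of 0.05; the common biological coefficient of variation was 0.112. The standard error of a log2 fold change is its size divided by the square root of F. Bounds used a floor of 3 counts over a group, and ratios exact 95% intervals. Alternatives were DESeq2 1.42.0, limma 3.58.1 on log2 of FPKM plus 1 or 0.1, other scalings and filters, the 8 libraries alone, the replicate number as a block, no robust estimation, 1.5-fold, and each library left out. The analysis was tested on simulated data. The members and the 42 gene lists were chosen with earlier results of these data known. Named genes were, in each direction, the 12 largest called changes without overlap and with a mean of at least 1 FPKM, up to 4 called members per described list, all members of lists of up to 8 genes, and a set of markers; Arc, Nr4a1, Lcn2, Slc32a1, Bdnf, Nptx2, Erbb4, Elavl4, Gpr17, Unc13a, Tap1, Cyp2e1, Klf4, Egr3, Chac1, Aif1, Neurod2, Etv1, C3ar1, Vim, H2-T22, Erap1, Optn, Grn, Map1lc3b, Atg5 the NRF2 genes, Crh, Hspa8 and any other gene the text names outside this rule were named after their values were seen. Results that need certain withheld genes are left out here. Promoter windows were 250 bases before to 50 after the start, from RefSeq on GRCm38.p6. Within groups, the 12 pairs of libraries gave a chi-square over its degrees of freedom of 4.82 to 22.7, so no pair was 1 library deposited again.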

Additional observations from a re-analysis of the deposited data

Results flagged for a closer look

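In 19 of 284 groups of 4 libraries (6.69%), 1 library stood further from the rest than Dixon's 95% critical ratio allows; chance flags about 1 in 20. The flags of Alb, Mup3 and Gc in TAG-GGC100 rest on 1, 2 and 1 counts over the group. With no count in the other libraries of the group, any count gives such a flag. Causes were not tested.

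In ATG-GGN100dCT, replicate 4 had 21.01 FPKM of C4b against 7.98 to 9.54 in the other 3. Replicate 3 stood apart in Ina (58.0 against 60.7 to 61.1 FPKM), Sst (236.97 against 193.6 to 196.6), Arntl, a clock gene (2.93 against 4.53 to 4.62), and Hbb-bt, a hemoglobin gene (0.34 against 2.18 to 2.52).

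In TAG-GGC100, replicate 1 had 20.64 FPKM of Cirbp against 12.03 to 13.47, 200.76 of Hspa8 against 260.6 to 273 and 1.56 of Cd46 against 0.98 to 1.07. Replicate 2 had 1.43 of C1ra against 0.96 to 1.0 and 0.1 of Mup3 against 0. Replicate 3 had 37.79 of Srxn1 against 30.9 to 32.0, 33.27 of Ccn3 against 47.7 to 49.8 and 0.04 of Gc against 0. Replicate 4 had 0.03 of Alb against 0, 0.09 of Mat1a against 0.02, 2.64 of Gm4294 against 1.56 to 1.74, 13.98 of Ccn2 against 8.8 to 9.01, 18.68 of Hba-a1 against 9.8 to 10.8 and 6.03 of Hba-a2 against 1.92 to 2.57.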

How the results depend on the processing

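Of 2555 alternative values for 143 named genes, 2190 kept direction and side of the threshold, 326 lost the call, 30 gained one and 9 changed sign. Left-out ranges of genes with a sign change were -0.0 to 0.22 (P2ry12), -0.05 to 0.22 (Mbp), -0.1 to 0.22 (Cldn5), -0.05 to 0.26 (Ccn3) and -0.02 to 0.12 (Lrp12). None of these 5 was called. Against TAG-GGC100, 1542 calls (762 higher, 780 lower) became 634 (315 and 319) in a fit of the 8 libraries and 567 (404 and 163) at 1.5-fold. Lower calls were 512 with library totals, and 438 and 434 by limma with pseudocounts of 1 and 0.1. Leaving out each library gave 515 to 2123 calls, 272 to 1068 higher and 243 to 1055 lower. Against ATG-GGC100, 363 calls (152 and 211) became 556 (265 higher) without a filter, 695 (341 and 354) by DESeq2, 181 (73 and 108) with 8 libraries and 181 (80 and 101) at 1.5-fold; 95 were higher by limma with 0.1. Leaving out each library gave 165 to 688 calls, 66 to 369 higher and 99 to 319 lower. The cause was not tested, beyond the fewer samples in a fit of 8 libraries. Replicate numbers did not pair the samples: correlations of deviations were -0.174 to -0.022 for equal numbers. With the replicate block, calls were 1135 against TAG-GGC100 and 265 against ATG-GGC100. Genes under about 1 FPKM rest on few counts.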

Other observations

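Several genes outside the lists, picked after their values were seen, differed between the groups. Dhx9 (ENSMUSG00000042699), an RNA helicase gene, had 20.4, 17.3, 21.7 and 23.02 FPKM in ATG-GGN100dCT, against 13.04, 13.5, 12.96 and 13.1 FPKM in TAG-GGC100. The change was 0.61 ± 0.07 (SE; edgeR adjusted p = 4.67e-05), and against ATG-GGC100 it was 0.41 (adjusted p = 0.0024). Kit, a receptor tyrosine kinase gene, fell to 2.91, 3.62, 3.15 and 3.01 FPKM in ATG-GGN100dCT, against 5.45, 5.96, 4.46 and 5.19 FPKM in TAG-GGC100 (-0.77 ± 0.10, edgeR adjusted p = 0.000146). Rnd1, a small GTPase gene, had 4.76, 6.27, 4.03 and 3.89 FPKM in ATG-GGN100dCT, against 10.3, 10.6, 7.99 and 11.8 FPKM in TAG-GGC100 (-1.14 ± 0.15, edgeR adjusted p = 0.00039). Rgs13 and Gal, expressed at low levels, were highest in ATG-GGN100dCT replicates 3 and 4. Rgs13, a regulator of G protein signalling, had 1.36, 0.59, 3.72 and 2.86 FPKM in ATG-GGN100dCT, against 0.08, 0.10, 0.22 and 0.20 FPKM in TAG-GGC100 (3.80 ± 0.66, edgeR adjusted p = 0.00429). The neuropeptide gene Gal had 0.69, 0.58, 2.50 and 2.03 FPKM in ATG-GGN100dCT, against 0.35, 0.20, 0.27 and 0 FPKM in TAG-GGC100 (2.75 ± 0.60, edgeR adjusted p = 0.0101). The neutrophil genes S100a8 and S100a9 were not called here (0.74 and 0.93, edgeR adjusted p = 0.473 and 0.278), while against ATG-GGC100 they were higher by 3.50 ± 0.85 and 2.85 ± 0.65 (adjusted p = 0.0342 and 0.0242).

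Clock and splicing factor lists were also counted. Of 17 clock genes 5 fell and none rose, Arntl, Npas2, Per2, Cry1 and Cry2, against 4.4% of all genes called lower. Bhlhe41 (0.25, edgeR adjusted p = 0.0982) and Nr1d1 (0.24, adjusted p = 0.112) were not called. The labels give no time of day. The count was 2, 1, 3, 1, 3 and 3 without ATG-GGN100dCT replicates 3 and 4 and TAG-GGC100 replicates 1 to 4. Of 30 splicing factor genes 5 fell and 2 rose, Cirbp and Rbm3, against 4.4% of all genes called lower and 4.3% called higher. Srsf7 had 32.9, 33.2, 26.7 and 28.9 FPKM in ATG-GGN100dCT, against 37.0, 38.3, 41.9 and 44.2 FPKM in TAG-GGC100 (-0.45, edgeR adjusted p = 0.00434). The 5 became 1 without ATG-GGN100dCT replicate 3 or 4 or TAG-GGC100 replicate 4, and 3 without TAG-GGC100 replicate 3; the 2 became 0 without TAG-GGC100 replicate 2 or 4 and 1 without ATG-GGN100dCT replicate 3 or 4 or TAG-GGC100 replicate 3.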
